A study of Mus musculus with 6 samples.

Results

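Mast cell genes are described here as a set of 8 genes, chosen by name from the 21959 genes of the deposited table: Cpa3, Cma1, Mcpt4, Tpsb2, Tpsab1, Fcer1a, Ms4a2 and Hdc. All 8 passed the filter on low counts. The RNA was from pieces of dorsal skin, all layers included, of male C57BL/6 mice that were 7 weeks old, in telogen (the resting phase of the hair cycle) and shaved on the back. The vehicle group (n = 3 mice) received dipropylene glycol in distilled water on the skin each day for 7 days, and the rebamipide group (n = 3 mice) received 3% rebamipide, a drug first used to protect the gastric mucosa, for the same 7 days. Both groups were of the same strain, sex and age, both were shaved, and no transgene is named in the labels. The question addressed was how the level of these genes in the skin differed between the groups.

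Mast cells are long-lived immune cells that settle beside vessels, nerves and hair follicles, and the connective tissue of the skin is among their main sites. They store histamine and proteases, held on heparin in cytoplasmic granules, and release them when antigen crosslinks IgE bound to its receptor FcεRI, or when peptides reach receptors such as Mrgprb2. Cpa3 encodes the granule carboxypeptidase. Cma1 and Mcpt4 encode the chymases mMCP-5 and mMCP-4, and Tpsb2 and Tpsab1 the tryptases mMCP-6 and mMCP-7. Fcer1a and Ms4a2 encode the IgE-binding α chain and the signal-amplifying β chain of FcεRI, and Hdc encodes histidine decarboxylase, which makes histamine. Tpsab1 is known to carry a splice defect in C57BL/6 mice, so that little mRNA and no protein is made in this strain.

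Mcpt4 and Cma1 lie in the chymase locus. In the GRCm39 coordinates of the deposited table, Cma1 is at chr14:56178908-56182132 and Mcpt4 at chr14:56297086-56299770, both on the minus strand, with Cma2, Mcpt1, Mcpt9 and Mcpt2 between them. Tpsab1 (chr17:25562219-25564536, minus strand) and Tpsb2 (chr17:25585279-25588072, plus strand) are neighbours in the tryptase locus, followed by Tpsg1. Cpa3 is at chr3:20269784-20296345, Fcer1a at chr1:173048851-173054781, Ms4a2 at chr19:11592887-11601083 and Hdc at chr2:126435587-126461219, all on the minus strand. None of the 8 genes overlaps another gene of the table.

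Promoter windows are shown for 4 genes whose levels are compared most often in what follows, so that a granule protease, a chymase, a receptor chain and the histamine enzyme can be read side by side. Each holds the 250 bases before the transcription start, from RefSeq on GRCm38.p6, on the minus strand and written 5′ to 3′. The windows are chr3:20242182-20242431 for Cpa3, chr14:56062311-56062560 for Mcpt4, chr19:11623720-11623969 for Ms4a2 and chr2:126618679-126618928 for Hdc. Capitals mark the motif GATAA, the core bound by GATA factors such as GATA2 of mast cells, or its reverse complement TTATC.
Cpa3: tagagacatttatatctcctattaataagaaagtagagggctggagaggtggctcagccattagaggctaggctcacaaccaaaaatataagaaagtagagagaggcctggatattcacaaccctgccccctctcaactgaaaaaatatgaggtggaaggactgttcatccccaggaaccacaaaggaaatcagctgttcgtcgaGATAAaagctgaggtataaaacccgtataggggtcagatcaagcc
Mcpt4: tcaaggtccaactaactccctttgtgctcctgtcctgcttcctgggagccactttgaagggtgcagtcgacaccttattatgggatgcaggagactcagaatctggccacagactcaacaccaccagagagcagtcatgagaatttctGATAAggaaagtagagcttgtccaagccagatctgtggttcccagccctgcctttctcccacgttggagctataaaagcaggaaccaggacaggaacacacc
Ms4a2: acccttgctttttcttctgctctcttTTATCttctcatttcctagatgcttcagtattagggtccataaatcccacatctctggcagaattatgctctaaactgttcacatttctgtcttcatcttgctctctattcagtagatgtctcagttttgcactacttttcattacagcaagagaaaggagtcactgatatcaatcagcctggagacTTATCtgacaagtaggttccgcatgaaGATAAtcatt
Hdc: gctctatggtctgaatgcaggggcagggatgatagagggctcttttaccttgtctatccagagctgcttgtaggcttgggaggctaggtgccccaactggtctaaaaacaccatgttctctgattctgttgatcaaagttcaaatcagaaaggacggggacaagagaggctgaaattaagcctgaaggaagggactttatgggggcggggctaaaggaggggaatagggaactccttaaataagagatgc

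A promoter window was matched by symbol for 6 of the 8 genes, those of Cpa3, Cma1, Mcpt4, Fcer1a, Ms4a2 and Hdc. GATAA was searched on both strands and was found in 5 of these 6 windows, beside 22.6% of all 32851 promoter windows of that length. The match began 45 bases before the start in Cpa3 and 102 bases before it in Mcpt4. Ms4a2 held 3 matches, at 224, 37 and 10 bases before the start, and the Hdc window held none. The E-box CATGTG, a form bound by MITF, was in 1 of the 6 windows (Fcer1a) and in 12.3% of all windows, and its other form CACGTG was in 0 of 6 and in 6.0% of all. TATAAA, the TATA box, was in 3 of the 6 (Fcer1a, Cpa3 and Mcpt4) and in 12.4% of all windows, and it overlaps none of the other motifs in letters. These matches describe letters in a window and not bound sites.

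The libraries held 38676018 to 39915276 counts in the vehicle group and 32709801 to 34706852 in the rebamipide group. The skin label was checked against keratins of the basal epidermis. Krt14 had 26099 to 64371 counts in the vehicle libraries, 10954 in rebamipide 1, 6102 in rebamipide 2 and 0 in rebamipide 3, where Krt5 had 4 counts. The library labelled rebamipide 3 thus lacked Krt14 and nearly lacked Krt5, defining keratins of the basal epidermis, so results are also given without it. Ucp1, the uncoupling protein of brown fat, had 0 counts in every vehicle library and 81048 to 220449 counts in the rebamipide libraries. Mitochondrially encoded genes took 2.59 to 5.36% of counts in the vehicle group and 13.3 to 22.0% in the rebamipide group. In bulk tissue, fewer cells of a type and less RNA per cell cannot be told apart, and neither can a change of composition between the pieces of tissue taken.

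Levels are first given per gene length, as FPKM (counts scaled to gene length and library total), since they are compared between genes. Mcpt4 was the highest of the set in both groups, with 77.4 ± 42.6 FPKM (SD, n = 3) in vehicle and 20.4 ± 23.1 in rebamipide. Cma1 followed with 43.7 ± 25.9 and 12.3 ± 14.6 FPKM, then Cpa3 with 33.9 ± 20.6 and 6.29 ± 6.68, and Tpsb2 with 15.9 ± 7.17 and 4.92 ± 4.73. The order Mcpt4 over Cma1 over Cpa3 held in 6 of 6 libraries and Cpa3 over Tpsb2 in 5 of 6, although the spreads of neighbours overlap in both groups. These 4 granule proteases made up 98.4 to 98.7% of the summed FPKM of the set in the vehicle libraries and 98.0, 94.5 and 86.0% in rebamipide 1, 2 and 3.

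The means of the remaining 4 genes were lower, although in rebamipide 3 Hdc, at 1.22 FPKM, came near Cpa3 at 1.65 and Tpsb2 at 1.75. Fcer1a stood at 1.06 ± 0.47 FPKM in vehicle and 0.356 ± 0.258 in rebamipide, Hdc at 0.708 ± 0.523 and 1.18 ± 0.0598, and Ms4a2 at 0.509 ± 0.31 and 0.0504 ± 0.0701. Tpsab1 was at 0.204 ± 0.156 FPKM in vehicle and 0.087 ± 0.128 in rebamipide, below Tpsb2 in every library. Fcer1a exceeded Hdc in 3 of 3 vehicle libraries and in 0 of 3 rebamipide libraries, and Ms4a2 and Tpsab1 changed places between libraries (3 of 6 in each order).

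The proteases detected were those known from connective tissue mast cells. Mcpt1 and Mcpt2, the chymases of mucosal mast cells, had at most 2 and 0 counts in any library. Of the basophil genes, Mcpt8 (mMCP-8) had at most 4 counts and Prss34 (mMCP-11) at most 12. Of the 4 basophil genes listed, Itga2, an integrin chain that other cells also make, carried most of the summed level in every library but rebamipide 3, where Il4 was at 0.649 and Itga2 at 0.496 normalized CPM. That sum was 13.6 to 15.5 normalized CPM in vehicle and 1.15 to 3.98 in rebamipide. Normalized CPM are counts scaled to library total and TMM factor, without regard to gene length, so they serve to compare a gene between libraries.

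Between the groups, 7 of the 8 genes had a fitted fold change below 1 in rebamipide and 1, Hdc, above 1, and none passed the test. At an adjusted p under 0.05 (edgeR's quasi-likelihood test on counts, Benjamini-Hochberg over 14875 genes), 0 of 8 were called higher and 0 of 8 lower, where 14.1% of all genes tested were called higher and 6.51% lower. At an unadjusted p under 0.05, 1 gene was higher (Hdc, background 20.9%) and 1 lower (Ms4a2, background 18.8%). DESeq2 called 2 genes lower, Cpa3 (adjusted p = 0.0466) and Ms4a2 (adjusted p = 0.0388), and 0 higher, beside 14.3% and 14.9% of all genes, and limma-voom called 0 in either direction, beside 6.94% and 14.4%. The median log2 fold change of the 8 genes was -1.27, and that of all genes tested was -0.18.

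**Figure D1:**
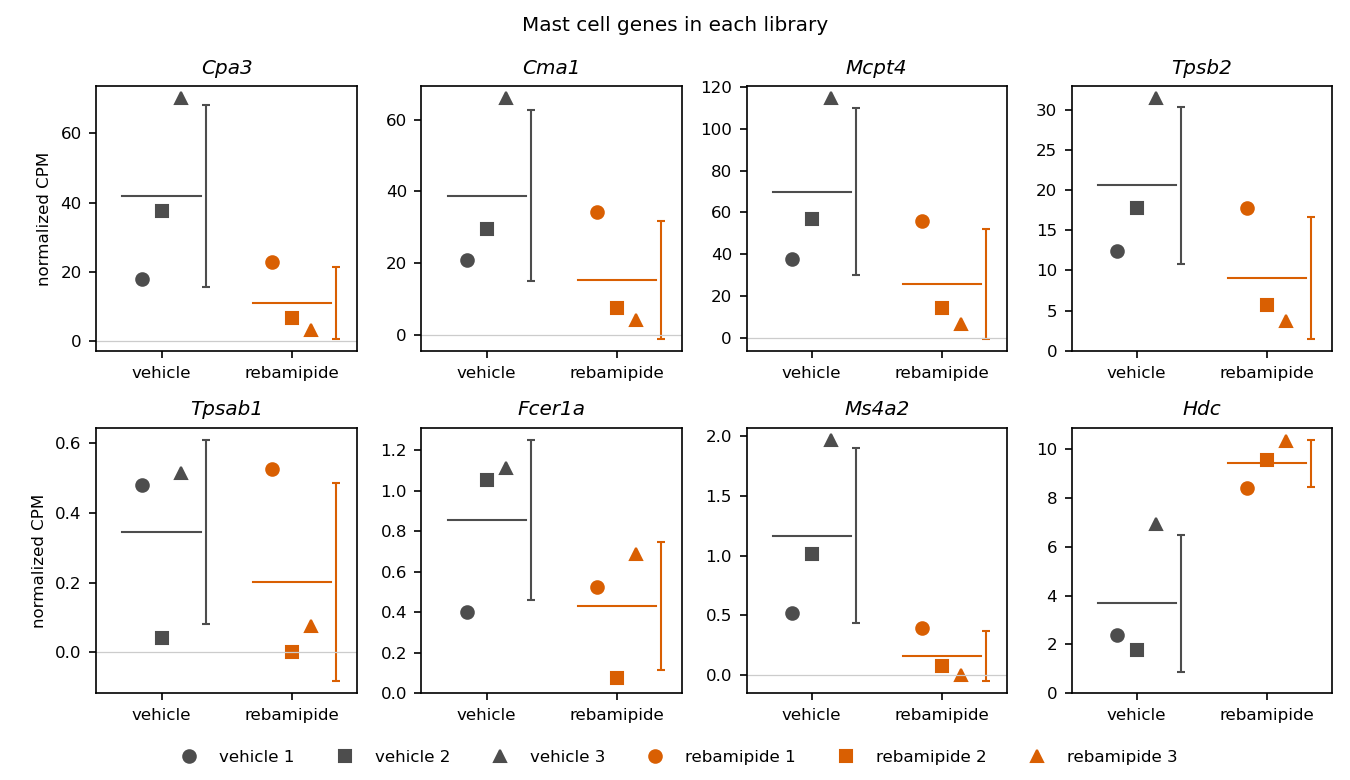
Normalized CPM of each mast cell gene (y axis, linear, a scale of its own per panel) in the 3 vehicle and the 3 rebamipide libraries; points are libraries, the horizontal line is the group mean and the bar beside it is ± 1 SD. In the panels of Cpa3, Cma1, Mcpt4 and Tpsb2, rebamipide 1 lies among the vehicle libraries and rebamipide 2 and 3 lie below all of them, while the Hdc panel has all 3 rebamipide libraries above all 3 vehicle libraries.

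Values by library follow, in normalized CPM. Cpa3, the carboxypeptidase, was at 18.1, 37.4 and 70.2 normalized CPM in vehicle 1, 2 and 3 and at 22.8, 6.63 and 3.32 in rebamipide 1, 2 and 3. Rebamipide 1 lay between vehicle 1 and vehicle 2, and rebamipide 2 and 3 lay below every vehicle library, so the groups overlap on this scale. In FPKM, which carry no TMM scaling, they do not, at 15.2, 30.4 and 56.0 in vehicle and 13.9, 3.26 and 1.65 in rebamipide. The log2 fold change of Cpa3 was -1.94 (SE 0.83, 95% interval -3.95 to 0.07, edgeR adjusted p = 0.135).

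For both chymases too, rebamipide 1 lay within the vehicle range and rebamipide 2 and 3 below it. Cma1 was at 20.9, 29.5 and 66.0 normalized CPM in vehicle and 34.2, 7.37 and 4.05 in rebamipide, with rebamipide 1 above vehicle 1 and 2. Its log2 fold change was -1.35 (SE 0.87, edgeR adjusted p = 0.282). Mcpt4, which cleaves many extracellular substrates and is the chymase closest in activity to the human enzyme, was at 37.8, 57.0 and 114.7 normalized CPM in vehicle and 56.0, 14.3 and 6.76 in rebamipide. Here rebamipide 1 lay above vehicle 1 and just below vehicle 2, and the log2 fold change was -1.44 (SE 0.83, edgeR adjusted p = 0.238).

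The tryptase Tpsb2 had 12.5, 17.8 and 31.5 normalized CPM in vehicle and 17.8, 5.65 and 3.70 in rebamipide. The groups overlap through rebamipide 1, and the log2 fold change was -1.18 (SE 0.67, edgeR adjusted p = 0.231). Tpsab1 had 24, 2 and 24 counts in vehicle and 16, 0 and 2 in rebamipide, too few to compare (log2 fold change -0.73, SE 1.34, edgeR adjusted p = 0.706; -3.06 without rebamipide 1 and -0.17 without rebamipide 2). The 0 in rebamipide 2 allows up to 3 counts, or 0.0873 CPM before TMM scaling.

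The 4 proteases together amounted to 89.2, 141.7 and 282.4 normalized CPM in vehicle and 130.7, 33.9 and 17.8 in rebamipide. Their comparison turned on rebamipide 1. Without that library, edgeR called Cpa3 (log2 fold change -3.07, adjusted p = 0.0378), Cma1 (-2.76, adjusted p = 0.0371), Mcpt4 (-2.72, adjusted p = 0.038), Tpsb2 (-2.13, adjusted p = 0.0376) and Ms4a2 (-4.80, adjusted p = 0.0452) lower in rebamipide. That fit called 12.8% of all genes lower. DESeq2 likewise called 5 genes of the set lower without rebamipide 1, beside 23.9% of all genes, and limma-voom called 0, beside 8.93%. No label sets rebamipide 1 apart, and in keratin counts it is nearer to the vehicle libraries than rebamipide 2 and 3 are. Without rebamipide 3, the library that lacked Krt14, the log2 fold changes were -1.50 for Cpa3, -0.89 for Cma1, -0.98 for Mcpt4 and -0.80 for Tpsb2, with edgeR adjusted p of 0.227 to 0.467. Leaving out any other library left each of the 4 proteases uncalled by edgeR, with log2 fold changes up to -1.31 for Cpa3, -0.69 for Cma1, -0.84 for Mcpt4 and -0.71 for Tpsb2.

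Neither FcεRI chain was called by edgeR. Ms4a2, at few counts, was lower in all rebamipide libraries than in vehicle, and Fcer1a was not separated. Ms4a2 passed the filter on low counts through its vehicle libraries, where it is higher, so its separation is a description and not a test. Ms4a2 was at 0.521, 1.02 and 1.97 normalized CPM in vehicle (26, 50 and 92 counts) and at 0.395, 0.0779 and 0 in rebamipide (12, 2 and 0 counts). Its groups do not overlap, which was so for 24% of all genes tested in this direction. The log2 fold change was -2.82 (SE 1.14, 95% interval -5.59 to -0.06, edgeR adjusted p = 0.121), and without rebamipide 3 it was -2.26 (edgeR adjusted p = 0.177). The 0 in rebamipide 3 allows up to 3 counts, or 0.0864 CPM before TMM scaling.

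Fcer1a had 20, 52 and 52 counts in vehicle and 16, 2 and 18 in rebamipide, or 0.401, 1.06 and 1.11 against 0.527, 0.0779 and 0.687 normalized CPM. Rebamipide 1 and 3 lay between the lowest and the highest vehicle library. The log2 fold change was -0.98 (SE 0.81, edgeR adjusted p = 0.39). All 18 of 18 counts of Fcer1a, Ms4a2 and Tpsab1 in the 6 libraries were even numbers, and 68.7 to 70.7% of all counts from 1 to 100 were even, against 49.5 to 51.1% of counts above 500. Whether both ends of a read pair were counted was not tested; if they were, a 0 allows more than the limits given for Tpsab1 and Ms4a2, which assume independent counts.

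Hdc was the exception in direction. It was at 2.38, 1.77 and 6.91 normalized CPM in vehicle and at 8.40, 9.55 and 10.3 in rebamipide, from 87 to 323 counts in vehicle and 245 to 270 in rebamipide. All 3 rebamipide libraries lay above all 3 vehicle libraries, as was so for 24.5% of all genes tested in this direction, and vehicle 3 lay nearest to them. The log2 fold change was 1.35 (SE 0.56, 95% interval 0.00 to 2.70, edgeR adjusted p = 0.125). On total counts alone, a scaling that moved the median of all genes to -0.78, it was 0.74. In FPKM, likewise without TMM scaling, the groups overlap, at 0.477, 0.341 and 1.31 in vehicle and 1.22, 1.11 and 1.22 in rebamipide, with vehicle 3 the highest of all. Without vehicle 3, edgeR called Hdc higher (log2 fold change 2.19, adjusted p = 0.0243), beside 11.4% of all genes in that fit, and without rebamipide 3 its log2 fold change was 1.29 (edgeR adjusted p = 0.228).

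**Figure D2:**
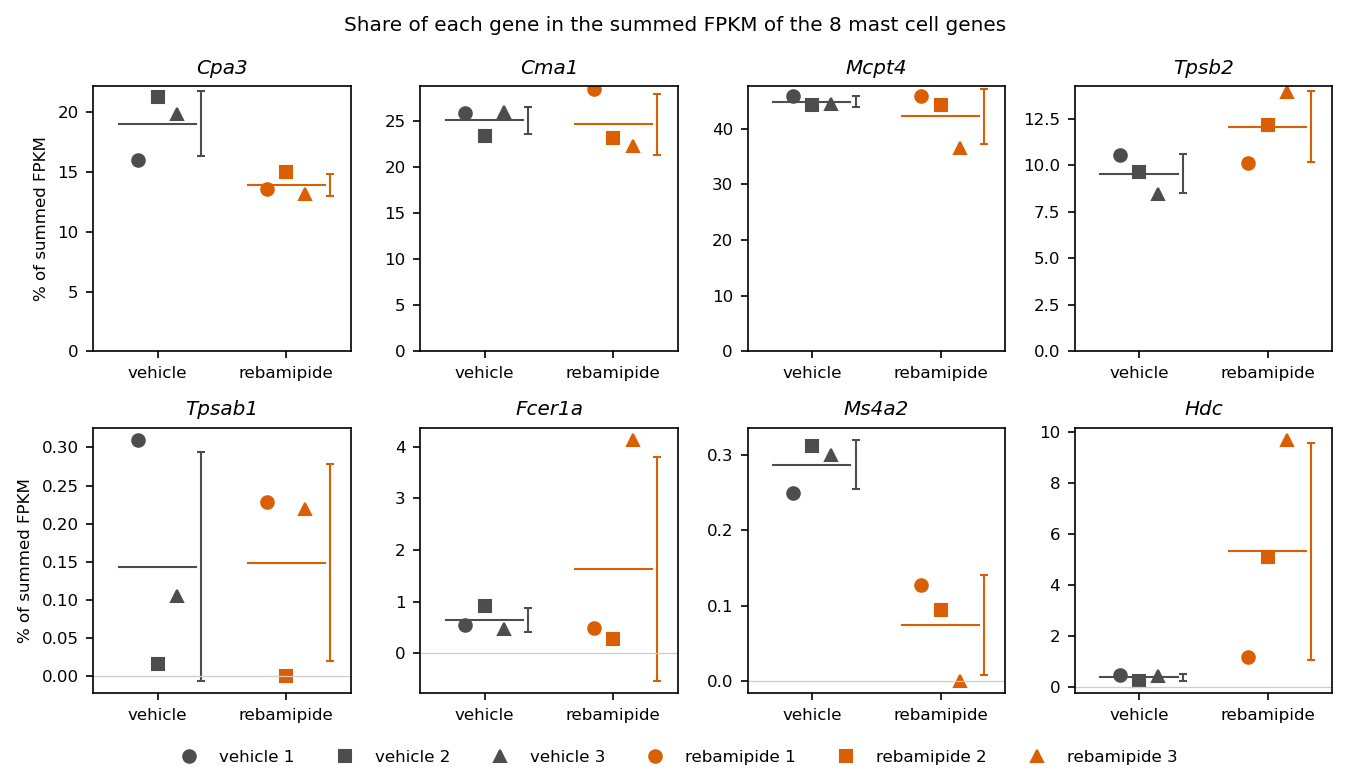
Share of each gene in the summed FPKM of the 8 mast cell genes (y axis, percent, linear, a scale of its own per panel) in each library; the line is the group mean and the bar ± 1 SD. Hdc lies at 0.238 to 0.503% in vehicle and 1.19 to 9.68% in rebamipide, and Cpa3 and Ms4a2 have all rebamipide libraries below all vehicle libraries.

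A share within a library does not depend on how libraries are scaled, so the make-up of the set was compared as each gene's percent of the summed FPKM. Mcpt4 took 44.9 ± 0.94% in vehicle and 42.2 ± 4.93% in rebamipide (exact permutation p = 0.4, two-sided), and Cma1 25.1% and 24.6% (exact permutation p = 0.8). Without rebamipide 3, where Mcpt4 took 36.6%, the rebamipide minus vehicle difference of Mcpt4 turned from -2.66 to 0.144 percentage points, and that of Cma1 from -0.43 to 0.741. Without rebamipide 1 they were -4.46 and -2.33. The ratio of Mcpt4 to Cma1 FPKM stayed between 1.61 and 1.91 over all 6 libraries, while the summed normalized CPM of the 4 proteases ranged from 17.8 to 282.4. The Hdc share was higher in rebamipide. It was 0.402 ± 0.143% in vehicle and 5.33 ± 4.25% in rebamipide (exact permutation p = 0.1, adjusted 0.267 over the 8 genes), and the ratio of Mcpt4 to Hdc FPKM was 91.4 to 186.0 in vehicle and 3.78 to 38.5 in rebamipide. Each share is a part of the same sum, so the Hdc share also rises when the proteases fall. In rebamipide 1, 2 and 3 it was 1.19, 5.12 and 9.68% at 1.22, 1.11 and 1.22 FPKM of Hdc. Vehicle 3, with the highest Hdc FPKM (1.31), had a share of 0.463%. Without rebamipide 3, the difference of the Hdc shares went from 4.93 to 2.75 percentage points, and on summed raw counts, which are not corrected for gene length, it was 19.1 points. Raw counts also moved the differences of Mcpt4 (from -2.66 to -7.65 points), Cpa3 (from -5.14 to -8.74) and Ms4a2 (from -0.213 to -0.490).

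Cpa3 took a smaller share in rebamipide, 13.9 ± 0.95% against 19.1 ± 2.70%, with no overlap (exact permutation p = 0.1, adjusted 0.267). The share of Ms4a2 was 0.287% in vehicle and 0.0741% in rebamipide, also without overlap (exact permutation p = 0.1, adjusted 0.267). Tpsb2 took 9.54% and 12.1% (exact permutation p = 0.2), Fcer1a 0.643% and 1.63% (exact permutation p = 0.9), and Tpsab1 0.144% and 0.149% (exact permutation p = 1). The higher Fcer1a mean came from rebamipide 3 alone (4.13%, against 0.479% and 0.268% in rebamipide 1 and 2), and without it the difference turned from 0.98 to -0.27 percentage points. With 3 libraries against 3, the smallest p this test can give is 0.1, so no share could pass a threshold of 0.05.

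**Figure D3:**
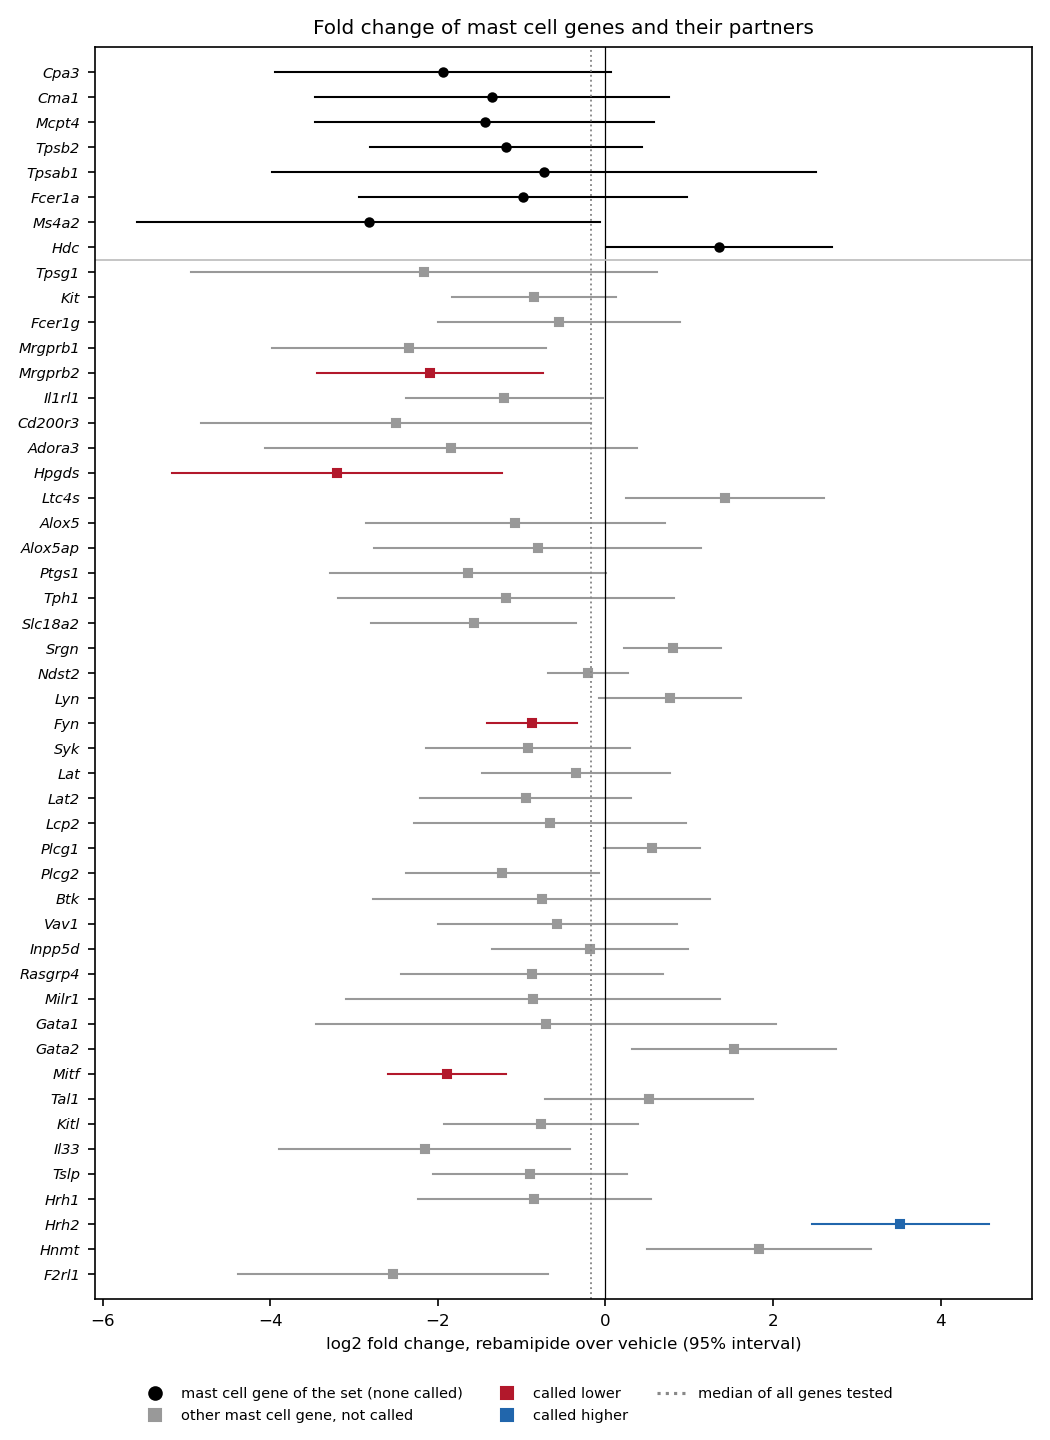
Log2 fold change of rebamipide over vehicle (x axis) with its 95% interval for the 8 mast cell genes (circles, above the grey line) and 41 of the 42 other mast cell genes tested (squares); the dotted line is the median of all genes tested. No circle is coloured, since none was called, and 5 squares are: Mrgprb2, Hpgds, Fyn and Mitf lower and Hrh2 higher.

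Other genes of mast cell biology were taken from 7 lists with 52 genes, of which 42 passed the filter. Of these, 1 was called higher (Hrh2) and 4 lower (Mrgprb2, Hpgds, Fyn and Mitf) at an edgeR adjusted p under 0.05, beside 14.1% and 6.51% of all genes. At an unadjusted p under 0.05, 5 of 42 were higher and 11 of 42 lower, beside 20.9% and 18.8% of all genes. Their median log2 fold change was -0.86.

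Among the other proteases, 1 of 6 passed the filter. Tpsg1, the membrane-anchored tryptase next to Tpsb2, had 21, 61 and 93 counts in vehicle and 17, 6 and 0 in rebamipide (log2 fold change -2.17, edgeR adjusted p = 0.206). Cma2 and Ctsg, also of the chymase locus, had at most 18 counts in any library. Thus the locus gave high counts for Cma1 and Mcpt4 and close to none for the genes between them, in either group.

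Of 7 receptors, 1 was called lower and 0 higher, beside 6.51% and 14.1% of all genes. Mrgprb2, the receptor through which basic peptides and drugs activate connective tissue mast cells without IgE, had 84, 197 and 237 counts in vehicle and 34, 22 and 14 in rebamipide. It ranged over 1.68 to 5.07 normalized CPM in vehicle and 0.534 to 1.12 in rebamipide without overlap, and its log2 fold change was -2.09 (SE 0.56, edgeR adjusted p = 0.0457). Of the 6 edgeR fits that leave out a library, only the one without vehicle 1 called Mrgprb2 (adjusted p = 0.0394). The others gave log2 fold changes of -2.36 to -1.74 and adjusted p of 0.05 (without rebamipide 1), 0.107 (vehicle 3), 0.119 (rebamipide 3), 0.152 (vehicle 2) and 0.156 (rebamipide 2). Without vehicle 2 edgeR called 0 of all genes in either direction, and without rebamipide 2 it called 1 higher and 0 lower, so calls lost in these fits say little about single genes. On all libraries, the call was lost with limma-voom (adjusted p = 0.0823) and with no filter (edgeR adjusted p = 0.0558).

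Kit, the stem cell factor receptor that mast cells need to survive and that melanocytes also carry, was at 23.5 to 61.9 normalized CPM in vehicle and 18.7 to 26.5 in rebamipide (log2 fold change -0.85, edgeR adjusted p = 0.166). Of the 5 melanocyte genes (Tyr, Dct, Pmel, Tyrp1, Mlana), edgeR called 0 and 0 had an unadjusted p under 0.05 (18.8% of all genes were lower so). These melanocyte genes had overlapping summed levels of 32.0 to 1009 normalized CPM in vehicle and 0.687 to 122.5 in rebamipide, and their part in the Kit values was not tested. Fcer1g, the γ chain shared by FcεRI and other receptors of myeloid cells, had a log2 fold change of -0.55 (edgeR adjusted p = 0.51), and Il1rl1, the receptor for IL-33, one of -1.21 (edgeR adjusted p = 0.12).

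Of 9 genes for mediator synthesis and granule storage, 1 was called lower and 0 higher, beside 6.51% and 14.1% of all genes. Hpgds, the synthase of prostaglandin D2 in mast cells and other immune cells, was at 3.25 to 22.9 normalized CPM in vehicle and 0.649 to 1.91 in rebamipide, with no overlap (log2 fold change -3.20, SE 0.81, edgeR adjusted p = 0.0409). Hpgds was called by edgeR without vehicle 1 (adjusted p = 0.0348) and in none of the other 5 fits that leave out a library (adjusted p of 0.0748 to 0.118, and 0.0934 without rebamipide 3). Its log2 fold change was -2.34 without vehicle 3 and -3.69 without vehicle 1. On all libraries, the Hpgds call was lost with limma-voom (adjusted p = 0.112) and with limma on log2(FPKM + 1) (adjusted p = 0.0556). Ptgs1, the cyclooxygenase upstream of it, had a log2 fold change of -1.64 (edgeR adjusted p = 0.128). Srgn encodes the core protein of the proteoglycan that holds proteases and histamine in granules, and endothelial cells and other blood cells also make it. Its level was 25.7 to 38.6 normalized CPM in vehicle and 45.4 to 61.4 in rebamipide (log2 fold change 0.80, edgeR adjusted p = 0.0605). In FPKM, which carry no TMM scaling, the Srgn groups overlap, at 15.3, 14.4 and 21.3 in vehicle and 19.2, 17.3 and 21.1 in rebamipide. Ndst2, which sulfates heparin, had a log2 fold change of -0.20 (edgeR adjusted p = 0.46).

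In IgE receptor signalling, 1 of 13 genes was called lower and 0 higher, beside 6.51% and 14.1% of all genes. Fyn, a Src family kinase that acts beside Lyn at FcεRI and is used by many cell types, was at 59.1 to 67.9 normalized CPM in vehicle and 28.4 to 43.5 in rebamipide (log2 fold change -0.87, SE 0.22, edgeR adjusted p = 0.0412). Fyn was called by edgeR without rebamipide 1 (adjusted p = 0.0113) and in none of the other 5 fits that leave out a library (adjusted p of 0.0857 to 0.159, and 0.131 without rebamipide 3), and the call was also lost with no filter (edgeR adjusted p = 0.0541). Lyn had a log2 fold change of 0.77 (edgeR adjusted p = 0.151), Syk -0.92 (edgeR adjusted p = 0.219) and Plcg1 0.56 (edgeR adjusted p = 0.136).

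Among the 4 transcription factors, Mitf was called lower and none higher, beside 6.51% and 14.1% of all genes. Mitf, the factor that mast cells and melanocytes both require, was at 24.3 to 43.4 normalized CPM in vehicle and 8.55 to 11.2 in rebamipide, without overlap (log2 fold change -1.89, SE 0.29, edgeR adjusted p = 0.0125), and the call was lost without vehicle 2 (adjusted p = 0.0747) or rebamipide 2 (adjusted p = 0.0603) and held without any of the other 4 libraries. In vehicle the library highest in Mitf, vehicle 1, was the lowest in Cpa3, Cma1, Mcpt4 and Tpsb2 and the highest in the melanocyte list. Rebamipide 1 had a higher melanocyte sum than vehicle 3 (122.5 against 32.0 normalized CPM) but less Mitf (8.83 against 24.3). The part of melanocytes in the Mitf values was not tested. Gata2, which mast cells and endothelial cells express, stood at 3.09, 4.77 and 11.2 normalized CPM in vehicle and 15.6, 19.4 and 20.2 in rebamipide (log2 fold change 1.54, edgeR adjusted p = 0.0753). Like Hdc, Gata2 had its 3 rebamipide libraries above its 3 vehicle libraries, with vehicle 3 nearest to them. Tal1 had 0.52 (edgeR adjusted p = 0.472), and Gata1, at under 0.6 normalized CPM in each library, -0.70 (edgeR adjusted p = 0.665).

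Of the factors that feed or rouse mast cells, 4 of 6 passed the filter and edgeR called 0 in either direction. At an unadjusted p under 0.05, 0 were higher and 1 lower, beside 20.9% and 18.8% of all genes. Kitl, the ligand of Kit, had a log2 fold change of -0.77 (edgeR adjusted p = 0.266) and the alarmin Il33 one of -2.16 (edgeR adjusted p = 0.0776). Il3 and Il9 had 0 counts in every library.

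Downstream of mast cell products, 4 of 7 genes passed the filter, with 1 called higher and 0 lower, beside 14.1% and 6.51% of all genes. Hrh2, the histamine H2 receptor, was at 0.681 to 1.05 normalized CPM in vehicle and 5.63, 11.1 and 12.4 in rebamipide, a log2 fold change of 3.52 (SE 0.44, edgeR adjusted p = 0.00993). Every library in the rebamipide group was above the vehicle range, and edgeR called Hrh2 without any of 4 libraries but not without vehicle 2 (adjusted p = 0.0747) or rebamipide 2 (adjusted p = 0.0573), with log2 fold changes of 3.32 to 3.80. Hrh1, the H1 receptor, had a log2 fold change of -0.85 (edgeR adjusted p = 0.305), and Hnmt, which breaks down histamine in cells, 1.83 (edgeR adjusted p = 0.0615). F2rl1, the protease-activated receptor PAR2 that tryptase cleaves and keratinocytes carry, was at 46.5 to 67.4 normalized CPM in vehicle and 1.83 to 18.2 in rebamipide (log2 fold change -2.53, edgeR adjusted p = 0.0617). The 5 basal keratinocyte genes summed to 2305 to 3643 normalized CPM in vehicle and 1056, 659.8 and 130.6 in rebamipide 1, 2 and 3, and their part in the F2rl1 values was not tested.

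**Figure D4:**
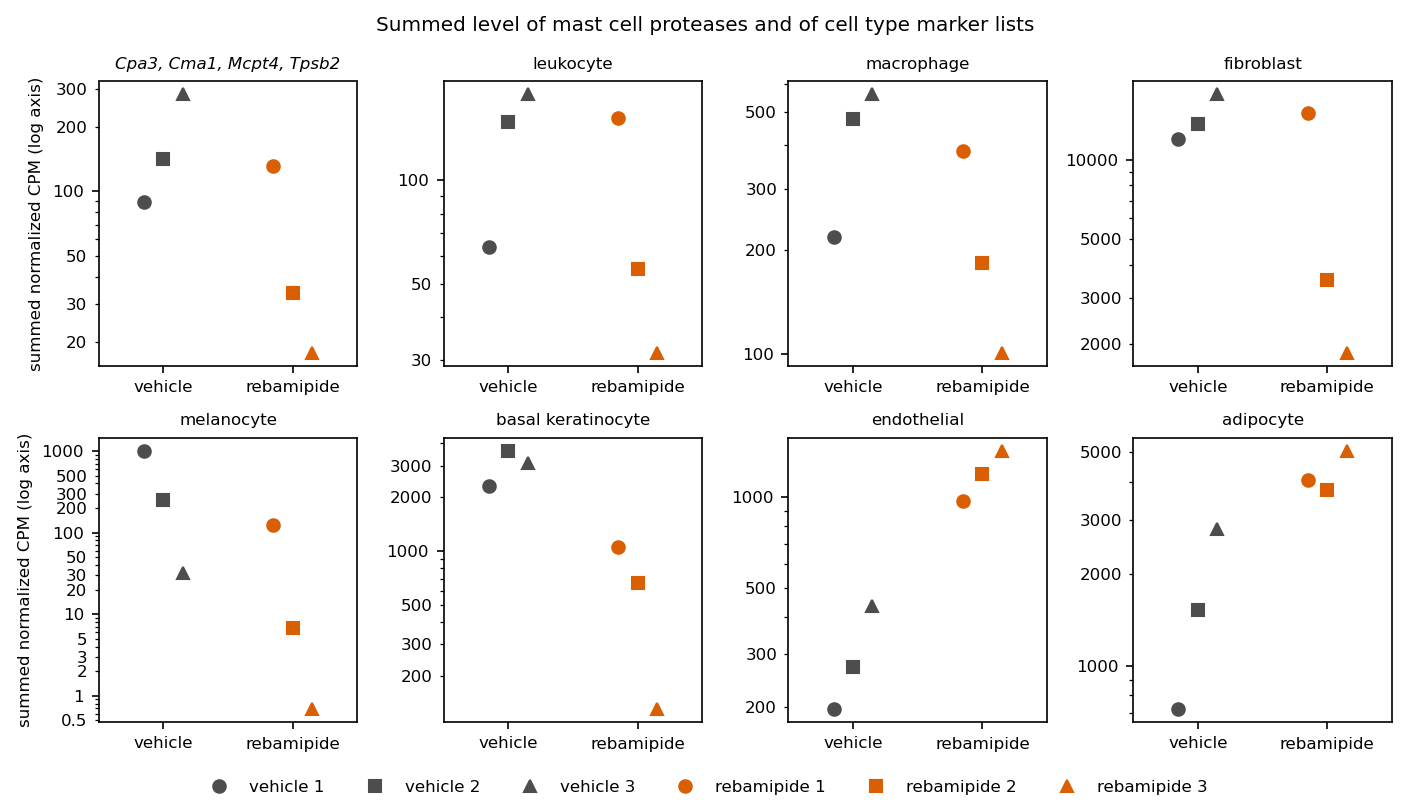
Summed normalized CPM (y axis, log scale, a scale of its own per panel) of Cpa3, Cma1, Mcpt4 and Tpsb2 and of 7 cell type marker lists in each library; points are libraries. In the protease, leukocyte, macrophage and fibroblast panels rebamipide 1 lies within the vehicle range and rebamipide 2 and 3 below it, and in the endothelial and adipocyte panels all rebamipide libraries lie above all vehicle libraries.

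Marker lists of other cell types were read in the same libraries. The summed level of 4 leukocyte genes was 63.8 to 178.2 normalized CPM in vehicle and 152.4, 55.1 and 31.4 in rebamipide 1, 2 and 3, and that of 5 macrophage genes was 217.5 to 560.9 in vehicle and 384.8, 182.8 and 100.7 in rebamipide. The 6 fibroblast genes summed to 12000 to 17740 in vehicle and 15110, 3503 and 1850 in rebamipide. In these lists too, rebamipide 1 lay within the vehicle range and rebamipide 2 and 3 below it, as for the proteases. No gene of the 3 lists was called by edgeR in either direction, beside 14.1% of all genes higher and 6.51% lower. At an unadjusted p under 0.05 the leukocyte list had 1 lower, the macrophage list 1 and the fibroblast list 2, beside 18.8% of all genes. Their part in the protease values was not tested.

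Lists of vessels and fat also stood higher in the rebamipide libraries, as Hdc, Gata2 and Hrh2 did. The 5 endothelial genes summed to 197.2, 271.4 and 434.4 normalized CPM in vehicle and 972.6, 1200 and 1431 in rebamipide, with 4 called higher. For this and the next 2 lists, 14.1% of all genes tested were called higher. Of the endothelial genes highest by CPM, Cdh5 was called (log2 fold change 2.22, edgeR adjusted p = 0.0139) and Pecam1 was not (1.21, edgeR adjusted p = 0.0571). The 4 brown adipocyte genes summed to 25.2 to 101.1 in vehicle and 4440 to 11920 in rebamipide, with 3 called higher. Of the 5 adipocyte genes, 3 were called higher (Adipoq, Plin1 and Pparg), while Cfd (log2 fold change 0.34, edgeR adjusted p = 0.697) and Lep (-0.53, edgeR adjusted p = 0.486) overlapped between the groups. The part of these cell types in the Hdc, Gata2 and Hrh2 values was not tested.

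Genes most like the set in pattern were found from the root mean square difference, over the 6 libraries, between a gene's centred log2 CPM and the mean of the 8 genes. Of 13628 genes with a mean of at least 1 CPM, the set itself left out, the 10 nearest were Gfpt2, Tmem158, Ccdc80, Prtn3, Efemp1, Ifi204, Socs3, Twist2, Arnt2 and Csf2rb2, at differences of 0.134 to 0.238. Ccdc80 and Efemp1 are extracellular matrix genes, Twist2 is a transcription factor of dermal mesenchyme, and Csf2rb2 encodes the mouse β chain of the IL-3 receptor. Gfpt2, the nearest, was at 30.3, 37.7 and 66.0 normalized CPM in vehicle and 42.8, 12.6 and 9.88 in rebamipide. Of the set itself, Tpsb2 was at 0.183 from the mean, Cma1 at 0.402, Mcpt4 at 0.439 and Cpa3 at 0.565. Ms4a2 was at 0.894, Fcer1a at 0.907 and Tpsab1 at 0.961, and Hdc was the farthest at 1.64. All but Tpsb2 lay farther from the mean than the 10 nearest genes did, so the mean does not stand for each gene of the set.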

How the data were processed

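RNA from dorsal skin was selected with poly-T beads, random-primed and sequenced; the kit is not described as keeping strand. The submitters' processing notes name fastp 0.22.0, HISAT2 2.1.0, HTSeq 0.9.1 and GRCm39. The authors deposited raw read counts per gene, without normalization, and FPKM values, which equal counts divided by gene length and library total. All libraries were compared, vehicle against rebamipide, with edgeR 4.0.16 in R 4.3.3 (TMM, filterByExpr, quasi-likelihood test, Benjamini-Hochberg over 14875 genes, threshold 0.05). DESeq2 1.42.0 and limma 3.58.1 served as alternatives, beside other scalings, filters, log2(FPKM + 1) and fits without each library. The tests were run on simulated data first. Fold changes are rebamipide over vehicle. The genes and lists were chosen with earlier results of these data known. Named genes are the 8 members, every called gene of the other mast cell lists and up to 3 of the highest CPM among the rest of each list, up to 2 marker genes per cell type by CPM, the 10 nearest in pattern and locus neighbours; Mcpt8, Prss34, Il3, Il4, Il9, Lep, Plin1, Pparg and the full melanocyte list were named beyond this, and 1 gene of the lists is not reported here. Intervals on a count of 0 cover counting error only.

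Against GENCODE transcripts of GRCm38, 5.48% of the 50-base stretches of Mcpt4 and 5.38% of those of Cma1 occur in another gene, and 0 of those of Cpa3, Tpsb2 and Tpsab1 do.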

Additional observations from a re-analysis of the deposited data

How the results depend on the processing

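Over the 27 or 28 alternatives run for each, the 8 mast cell genes kept their direction, except that Tpsab1 was at 0.005 (limma-voom without rebamipide 2). Alternatives named here that use DESeq2 or limma-voom without a library, or DESeq2 with the study's thresholds, were chosen after seeing the data. Members called higher (0) became 1 with the study's thresholds (unadjusted p under 0.05 and an absolute log2 fold change above 1) in edgeR and 1 in DESeq2 (edgeR called 14.3% of all genes higher and 14.5% lower so), and 0 to 1 without one library (vehicle 3 gives Hdc). For DESeq2 with the study's thresholds no share of all genes is given, so those counts cannot be read against it. Members called lower (0) became 2 with DESeq2, 1 with log2(FPKM + 1) in limma (Ms4a2), 1 and 2 with the study's thresholds in edgeR and DESeq2, and 0 to 5 without one library (rebamipide 1 gives 5). Other mast cell genes called higher (1) became 4 with DESeq2, 2 with limma-voom, 2 with at least 10 counts in every library (17% of all genes), 4 and 4 with the study's thresholds, and 0 to 8 without one library (0 to 3 with edgeR; 6 with DESeq2 without rebamipide 1, beside 20.4% of all genes; 8 with DESeq2 without vehicle 3, beside 16.4%). Those called lower (4) became 9 with DESeq2, 3 with limma-voom, 11 on total counts alone (25.2% of all genes were lower there), 2 with no filter (4.5% of all genes), 7 with at least 10 counts in every library (11.9%), 9 with log2(FPKM + 1) (23.8% of all genes), 10 and 12 with the study's thresholds, and 0 to 20 without one library (0 to 6 with edgeR, the 6 without rebamipide 1, beside 12.8% of all genes; 20 with DESeq2 without rebamipide 1, beside 23.9%). The cause was not tested, beyond the fewer genes or samples such fits hold. Replicate numbers do not pair the libraries (correlations of deviations -0.016, -0.038 and 0.003). With the replicate block, 0 members were called, and 2 other mast cell genes were higher and 1 lower (9.63% and 5.75% of all genes), with the calls of Mrgprb2 (adjusted p = 0.132), Hpgds (0.122) and Fyn (0.0569) lost. At 0 to 92 counts, the depth limits Tpsab1, Fcer1a and Ms4a2.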
